A study of Mus musculus with 11 samples.

Results

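The comparison is between 3 libraries of AKP colon cancer organoids re-derived from tumours and 3 libraries of the naive AKP organoids, 6 of the 11 libraries in the series. AKP is the labels' name for the engineered tumour genotype that all groups carry, which includes alterations of Apc and Trp53. The tumour-derived libraries, labelled with the numbers 1010, 1026 and 1027 and called C57Bl6 replicates 1 to 3, came from primary tumours that grew after orthotopic transplantation by colonoscopy into C57Bl6 recipients, which are immunocompetent. Per the series design, tumour organoids were cultured over several passages to leave cancer cells alone in the culture. The naive libraries, replicates 1 to 3, came from organoids with no recipient mouse. The other 5 libraries, 3 from RAG2KO recipients and 2 from SOX17OE lines, entered the same filter, scaling and fit. Of these, only the RAG2KO libraries added to the estimate of the spread, because each SOX17OE line was a group of its own. The sources used here do not give passage numbers, the recipients' ages or whether replicates are separate cultures or mice, so p-values measure the spread between these samples. Transplantation, growth as a tumour, re-derivation and time in culture differ together between the groups and cannot be told apart.

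Intestinal tumour organoids are epithelial cultures that grow as closed structures in a basement membrane gel. Epithelium of the colon is marked by simple keratins, villin and the homeobox factor Cdx2, whereas stratified squamous epithelium is marked by basal keratins and by the crosslinked proteins of the cornified envelope. Retinoid signalling, the aryl hydrocarbon receptor, small GTPase switches and axon guidance receptors are general epithelial systems that set differentiation, xenobiotic responses, cell shape and contact.

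Library totals lay between 14109182 and 22154456 counts in the naive group and between 17541721 and 19024262 in the C57Bl6 group. Levels are CPM, counts scaled to a common library size with the trimmed mean of M values, and values in a sentence are always in the order of replicates 1, 2 and 3. A gene was called where the adjusted p of the edgeR quasi-likelihood test was under 0.05. C57Bl6 replicate 2 stands apart in the genes of chromosome 13, which lay lower there than in the other 5 libraries, and results for single genes named there are given with and without it. All 26 immune cell markers were listed, 25 under the symbol used here and Adgre1 under another name. Of these 25, 14 had at most 3 counts in every one of the 6 libraries. The summed level of the immune markers was 21.1 to 43.1 CPM in the naive and 7.24 to 13.7 CPM in the C57Bl6 group. The 22 fibroblast, muscle and endothelial markers summed to 1.93 to 2.19 CPM and to 2.98 to 5.72 CPM, and the 16 epithelial markers to 12400 to 14700 CPM and to 10800 to 13600 CPM. Cd3g, Cd4, Nkg7, Ncr1, C1qa, C1qb, C1qc, Tyrobp, Cpa3, Col6a2, Des and Emcn were at 0 counts in all 6 libraries. Kit, Itgam and Ptprc reached 1.57, 1.41 and 1.01 CPM, each in a C57Bl6 library. Over all tested genes 9.5% were called higher and 5.85% lower. Of 7 tested immune markers 0 were called higher and 1, S100a8, lower, and S100a8 held most of the naive immune sum. Of 8 tested fibroblast, muscle and endothelial markers 2 were called higher, Acta2 and Tek, at no more than 1.23 and 1.92 CPM. The part of these cells in the results was not tested. Fewer cells of a type and less RNA per cell cannot be told apart in such bulk libraries.

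Of 23224 listed genes 13720 were tested and 2106 (15.3%) were called, 1304 higher (9.5%) and 802 lower (5.85%) in the C57Bl6 libraries. Every C57Bl6 library lay above every naive library for 2729 genes (19.9%) and below for 2320 (16.9%). The changes upward were the larger ones: 408 called genes were at least 8-fold higher, and 104 were at least 8-fold lower. Without naive replicate 1 the counts were 669 higher and 427 lower, without naive replicate 2 they were 673 and 357, and the lower genes numbered 495 without naive replicate 3 and 478 without C57Bl6 replicate 3. Genes given below with a fold change of their own and no remark kept their call when each of the 6 libraries was left out in turn, with a fold change within 1.5 times.

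Retinoid genes had the largest share of higher calls among the 38 gene lists examined. Vitamin A is taken up as retinol, stored or oxidised to retinoic acid, and read by the retinoic acid receptors. Of 28 members of retinoid metabolism and signalling 22 were tested, 11 were called higher and 1, Dhrs9 (log2 fold change -3.10), lower, with a median log2 fold change of 1.08 against 0.02 over all tested genes. Without naive replicate 2 the list had 6 higher members, and without naive replicate 3 it had 7. The single lower call ended in the absence of naive replicate 1, 2 or 3 or of C57Bl6 replicate 3.

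Stra6, the membrane receptor for retinol bound to its carrier protein, stood at 67, 73.6 and 87.4 CPM in the naive libraries and 504, 758 and 672 CPM in the C57Bl6 libraries (log2 fold change 3.08, SE 0.26, adjusted p = 8.69e-05). All 3 C57Bl6 libraries lay above the naive ones with a wide gap. Aldh1a2, an enzyme that makes retinoic acid, had no count in any naive library and stood at 4.66, 7.52 and 6.82 CPM in the C57Bl6 libraries. With a floor of 3 counts in each naive library it was at least 38.9-fold higher (adjusted p = 0.000725).

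Dhrs3, which reduces retinal back to retinol, was at 7.5, 7.76 and 8.29 CPM in the naive libraries and 13.6, 25.5 and 26.2 CPM in the C57Bl6 libraries (log2 fold change 1.47, SE 0.24, adjusted p = 0.00303). Its naive values were nearly equal, and C57Bl6 replicate 1 was the lowest of its group. The receptor Rarg was at 15.8, 19.15 and 25.6 CPM in the naive libraries and 41.9, 46.3 and 41.9 CPM in the C57Bl6 libraries (log2 fold change 1.10, SE 0.21, adjusted p = 0.00655), with no overlap between the groups. Other higher members of the list included Rbp2, Crabp2, Rarb, Aldh1a3, Rbp4 and Rdh10.

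Among xenobiotic genes the changes were in both directions. The aryl hydrocarbon receptor, Ahr, is a ligand-activated factor that induces Cyp1 enzymes and its own repressor Ahrr, whereas the pregnane X receptor, encoded by Nr1i2, induces other detoxifying enzymes and the efflux pump Abcb1a. Of 75 members of xenobiotic metabolism 60 were tested, 9 were called higher and 9 lower, with a median of -0.17. Higher calls numbered 3 without naive replicate 1 and 4 without naive replicate 2 or 3.

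The promoters of Cyp1b1 and Ahrr are shown because both genes are known targets of Ahr and both rose. The sequences are the 250 bases upstream of the RefSeq start on GRCm38.p6, read on the minus strand at chr17:79715062-79715311 and chr13:74292332-74292581, and the reads were aligned by the authors to another build, mm9. Capitals mark GCGTG, the core letters of the Ahr element, on either strand.
Cyp1b1: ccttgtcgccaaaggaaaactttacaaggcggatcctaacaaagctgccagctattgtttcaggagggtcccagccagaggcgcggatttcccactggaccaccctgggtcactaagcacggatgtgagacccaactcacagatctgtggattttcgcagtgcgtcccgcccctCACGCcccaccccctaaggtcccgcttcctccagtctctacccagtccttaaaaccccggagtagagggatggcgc
Ahrr: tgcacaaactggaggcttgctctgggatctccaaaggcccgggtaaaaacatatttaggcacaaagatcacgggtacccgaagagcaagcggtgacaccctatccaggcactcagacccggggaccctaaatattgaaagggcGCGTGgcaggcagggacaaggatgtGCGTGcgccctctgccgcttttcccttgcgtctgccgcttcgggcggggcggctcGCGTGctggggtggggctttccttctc
The letters occurred at 1 place for Cyp1b1 and at 3 for Ahrr. They also occurred in the same window of 28.2% of the 27025 gene promoters of that table, so a match describes the sequence alone.

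Cyp1b1, the oxidase named above, was at 2.93, 3.02 and 2.62 CPM in the naive libraries and 33.3, 32.6 and 24.3 CPM in the C57Bl6 libraries (log2 fold change 3.39, SE 0.28, adjusted p = 7.32e-05). All 3 C57Bl6 libraries were far above the naive range. Ahrr was at 0.143, 0.307 and 0.143 CPM in the naive libraries and 7.81, 4.83 and 7.63 CPM in the C57Bl6 libraries (log2 fold change 5.01, SE 0.51, adjusted p = 0.000278). It lies on chromosome 13, and C57Bl6 replicate 2 was the lowest of its group, still far above the naive libraries (log2 fold change 5.20 without it). Ahr itself, named after its values were seen, was at 22.8, 23 and 33.4 CPM in the naive libraries and 60.6, 67.1 and 63.4 CPM in the C57Bl6 libraries (log2 fold change 1.27, SE 0.20, adjusted p = 0.00269), and the groups were separate. Other genes linked to Ahr did not pass: the log2 fold change was 0.18 for Cyp1a1 (adjusted p = 0.855), 0.37 for Tiparp (0.463) and -1.44 for Nqo1 (0.204).

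Nr1i2 stood at 21.4, 17.1 and 17.3 CPM in the naive libraries and 2.57, 0.505 and 0.707 CPM in the C57Bl6 libraries (log2 fold change -3.87, SE 0.57, adjusted p = 0.00208), and its log2 fold change was -4.92 without C57Bl6 replicate 1, the highest of the low group. Abcb1a, the intestinal drug efflux pump, was at 68, 72.3 and 101.1 CPM in the naive libraries and 10.5, 1.4 and 2.17 CPM in the C57Bl6 libraries (log2 fold change -4.09, SE 0.87, adjusted p = 0.0134). Here too C57Bl6 replicate 1 was the highest of its group, and the log2 fold change without it was -5.48. Cyp2j6, an oxidase of fatty acids, fell from a tight naive range, 30.1, 29.4 and 29.9 CPM in the naive libraries and 5.61, 9.14 and 10.2 CPM in the C57Bl6 libraries (log2 fold change -1.84, SE 0.20, adjusted p = 0.000401). No library of one group reached the range of the other for these 3 genes.

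Keratins and cornified envelope genes changed in a mixed manner. Of 52 keratins 34 were tested, 10 were called higher and 3 lower (Krt8, Krt86 and Krt33a). Dropping naive replicate 1 left 6 higher and 1 lower, naive replicate 2 left 5 higher and naive replicate 3 left 6. Of 38 hemidesmosome, desmosome and squamous genes 29 were tested, 9 were called higher and 1, Pkp2, lower. There were 5 higher without naive replicate 2. Lower calls numbered 3 without C57Bl6 replicate 1 and 0 without any 1 of naive replicates 1 to 3 or C57Bl6 replicate 2 or 3. Keratins, Sprr2 genes and Ifitm genes have near-identical relatives, and reads shared between them make their values uncertain.

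The partners of the simple epithelial keratin filament moved apart. Krt8 was at 3456, 3139 and 3689 CPM in the naive libraries and 2603, 1990 and 1855 CPM in the C57Bl6 libraries (log2 fold change -0.67, SE 0.14, adjusted p = 0.0121), below naive in all 3. Krt18, its usual partner, was at 1173, 1128 and 1186 CPM in the naive libraries and 1978, 1917 and 1550 CPM in the C57Bl6 libraries (log2 fold change 0.64, SE 0.13, adjusted p = 0.00816), above naive in all 3. Krt7, a keratin of ducts and simple glands, was at 1434, 1268 and 1336 CPM in the naive libraries and 2716, 4234 and 2864 CPM in the C57Bl6 libraries (log2 fold change 1.28, SE 0.18, adjusted p = 0.00141). The directions of Krt8 and Krt18 were the same under each scaling tried.

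Krt4 and Krt14, keratins of stratified epithelium, rose by larger folds. Krt4, of mucosal squamous epithelium, was at 166, 157 and 175 CPM in the naive libraries and 728, 1396 and 1020 CPM in the C57Bl6 libraries (log2 fold change 2.66, SE 0.32, adjusted p = 0.000789). Krt14, of basal cells, was at 18.1, 17.2 and 14.8 CPM in the naive libraries and 93.8, 350 and 167 CPM in the C57Bl6 libraries (log2 fold change 3.61, SE 0.57, adjusted p = 0.00358). For both genes C57Bl6 replicate 2 was the highest library, and without it the log2 fold change of Krt14 was 2.97. Tgm1, the transglutaminase that crosslinks the envelope, was at 63.8, 64.4 and 70 CPM in the naive libraries and 279, 325 and 255 CPM in the C57Bl6 libraries (log2 fold change 2.11, SE 0.17, adjusted p = 6.2e-05), a shift of like size in all 3 libraries. Its substrate involucrin, Ivl, was at 0.357, 0.132 and 0.572 CPM in the naive libraries and 4.66, 2.69 and 3.59 CPM in the C57Bl6 libraries (log2 fold change 3.35, SE 0.53, adjusted p = 0.0028), and 3.96 without naive replicate 3. Cnfn, cornifelin, was at 0.929, 0.394 and 1.29 CPM in the naive libraries and 54, 44.9 and 11.5 CPM in the C57Bl6 libraries (log2 fold change 5.41, SE 0.73, adjusted p = 0.0016), with C57Bl6 replicate 3 the lowest of its group and above every naive library.

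Ivl belongs to the stretch of chromosome 3 between S100a1 and S100a10, where S100, cornified envelope and late envelope genes are neighbours in the GRCm38 annotation. This stretch was chosen after the values were seen. Of its 64 listed genes 30 were tested, 27 had a positive log2 fold change, 7 were called higher (S100a7a, Lor, Sprr2a1, Sprr2a2, Ivl, Lce1h and S100a11) and 1 lower (S100a8). Sprr2a1 and Sprr2a2 carry identical values and stand for 1 measurement. The median log2 fold change of the 30 genes was 0.88, against 0.02 over all tested genes, of which 9.5% were called higher and 5.85% lower. The median log2 difference from the naive mean was 0.43, 0.93 and 0.48 in C57Bl6 replicates 1 to 3, and replicate 2 was the highest of the 6 libraries for 18 of the 30 genes.

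Lor, loricrin of the envelope, was at 2.43, 3.02 and 2.81 CPM in the naive libraries and 12.2, 13 and 16.1 CPM in the C57Bl6 libraries (log2 fold change 2.31, SE 0.31, adjusted p = 0.00112), with no shared range. S100a7a was at 1.57, 1.36 and 2.34 CPM in the naive libraries and 13.2, 36.3 and 2.83 CPM in the C57Bl6 libraries (log2 fold change 3.30, SE 0.88, adjusted p = 0.0347). That gene was high in C57Bl6 replicate 2 and close to naive in replicate 3. Its call was lost with C57Bl6 replicate 2 dropped (log2 fold change 2.18, adjusted p = 0.0935), or naive replicate 1 (0.119), 2 (0.128) or 3 (0.0912). S100a11 was at 536, 542 and 646 CPM in the naive libraries and 1101, 1042 and 827 CPM in the C57Bl6 libraries (log2 fold change 0.78, SE 0.17, adjusted p = 0.0124), a call lost when naive replicate 1 (0.0623) or 2 (0.0612) was dropped. S100a8, a calcium-binding protein best known from neutrophils, ran the other way at 16.4, 13.4 and 30.2 CPM in the naive libraries and 2.88, 0.729 and 0.354 CPM in the C57Bl6 libraries (log2 fold change -3.92, SE 0.66, adjusted p = 0.00462), and its log2 fold change was -5.21 without C57Bl6 replicate 1.

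**Figure D1:**
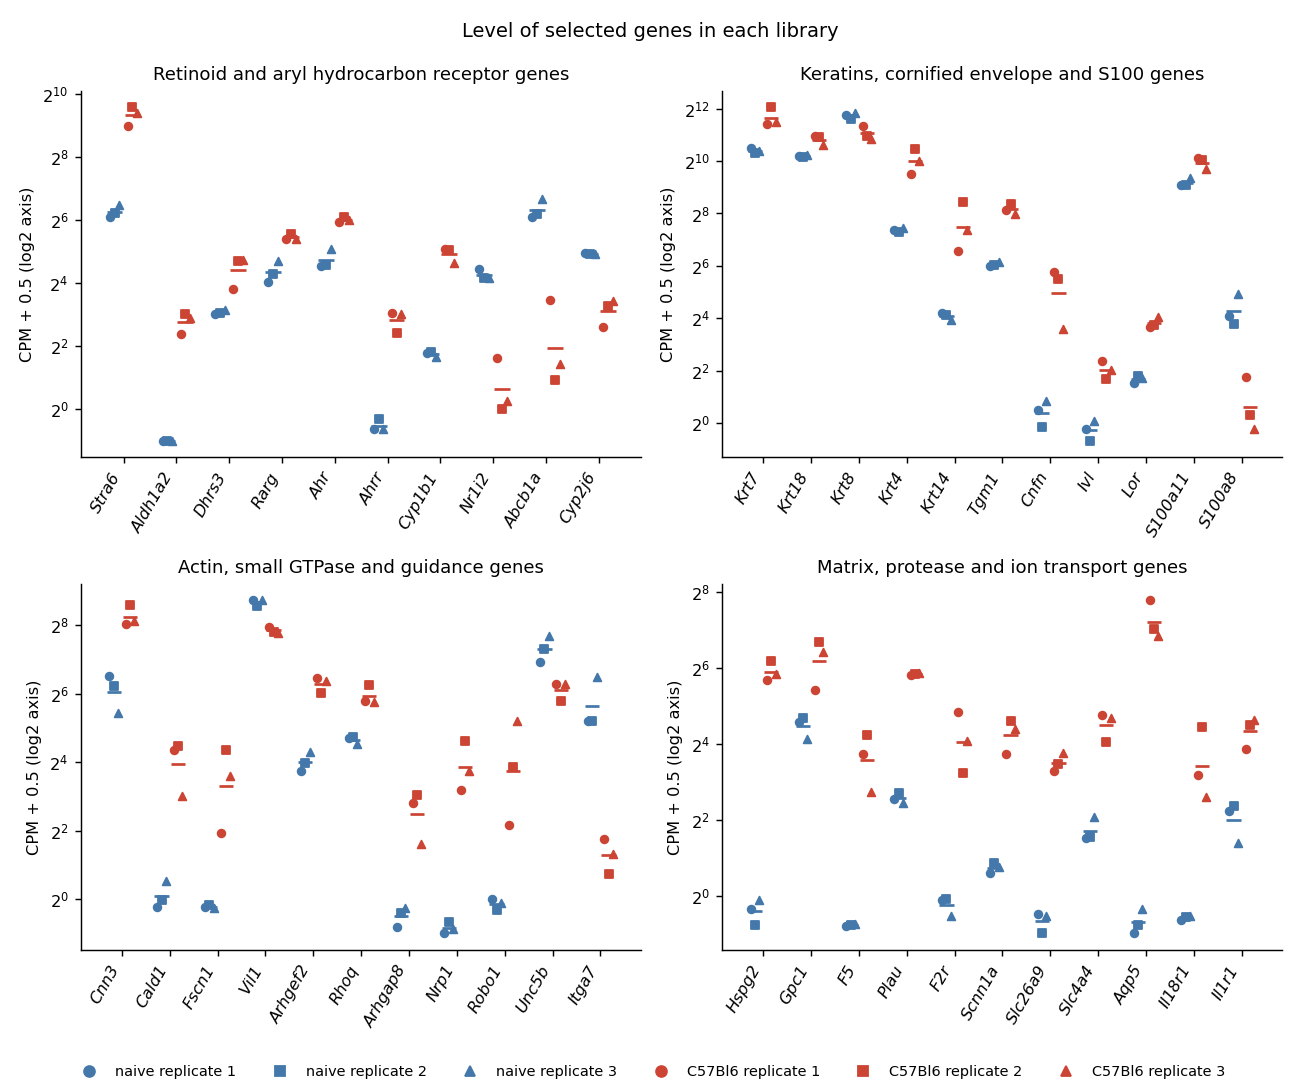
Level of selected genes in each of the 6 libraries as CPM + 0.5 on a log2 axis, naive in blue and C57Bl6 in red, 1 symbol per replicate, with horizontal lines at the mean of log2 values. For each gene shown the red and blue points do not overlap, as for Stra6 at up to 87.4 CPM in naive and at least 504 CPM in C57Bl6 libraries.

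Some genes of the actin cytoskeleton rose, by small and large amounts. Of 42 members of actin cytoskeleton and contractility 40 were tested, 14 were called higher and 1, Vil1, lower, and 25 were not called. Higher members numbered 4 with naive replicate 1 dropped, 5 with naive replicate 2 and 8 with C57Bl6 replicate 2, while 2 were lower with C57Bl6 replicate 1 dropped. Cnn3, an actin-binding calponin, was at 90.8, 73.7 and 42.6 CPM in the naive libraries and 262, 382 and 277 CPM in the C57Bl6 libraries (log2 fold change 2.15, SE 0.25, adjusted p = 0.000629). Cald1, caldesmon of contractile filaments, was at 0.357, 0.482 and 0.953 CPM in the naive libraries and 20, 21.7 and 7.53 CPM in the C57Bl6 libraries (log2 fold change 4.72, SE 0.83, adjusted p = 0.00573). C57Bl6 replicate 3 held the least Cald1 of its group, several times the highest naive value.

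Fscn1, the filopodial bundling protein fascin, was at 0.357, 0.394 and 0.334 CPM in the naive libraries and 3.3, 20.1 and 11.6 CPM in the C57Bl6 libraries (log2 fold change 4.98, SE 0.80, adjusted p = 0.00321), and 4.33 without C57Bl6 replicate 2, the highest library. Vil1, villin of the brush border, was at 423, 378 and 421 CPM in the naive libraries and 248, 224 and 218 CPM in the C57Bl6 libraries (log2 fold change -0.83, SE 0.14, adjusted p = 0.00431). Both groups were tight for villin, and each C57Bl6 library was lower. The remaining higher members were Actn1, Flnc, Flna, Acta2, Myh10, Cnn2, Pfn1, Myl12a, Actn4, Msn and Myl12b.

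The small GTPases that steer actin and their regulators changed in both directions. Of 102 genes of the Rhoa-related GTPases and the Arhgap and Arhgef families 60 were tested, 17 were called higher and 5 lower (Arhgef37, Arhgef4, Arhgef38, Arhgap32 and Rhof), with a median of 0.07. Without naive replicate 1 or 2 there were 10 higher, and without naive replicate 3 or C57Bl6 replicate 2 there were 3 lower. Arhgef2, a microtubule-bound activator of Rhoa, was at 12.9, 15.2 and 19.3 CPM in the naive libraries and 86.7, 64.4 and 81.5 CPM in the C57Bl6 libraries (log2 fold change 2.29, SE 0.19, adjusted p = 7.69e-05). Rhoq, a GTPase close to Cdc42, was at 25.4, 26.3 and 22.4 CPM in the naive libraries and 54.8, 75.8 and 54 CPM in the C57Bl6 libraries (log2 fold change 1.32, SE 0.18, adjusted p = 0.00111). Arhgap8, from a family of GTPase inactivators, was at 0.0715, 0.263 and 0.334 CPM in the naive libraries and 6.5, 7.8 and 2.58 CPM in the C57Bl6 libraries (log2 fold change 4.54, SE 0.70, adjusted p = 0.0024). The groups did not overlap for these 3 genes.

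Integrin genes and their cytoplasmic partners were split. Of 41 members of integrins and focal adhesion 37 were tested, 7 were called higher and 3 lower (Itga7, Lims1 and Tln2), and without naive replicate 1 or 2 there were 3 higher. Integrin-linked kinase, Ilk, binds parvin and a LIM protein in 1 complex at the inner side of integrins. Ilk was at 74.2, 73.5 and 66.9 CPM in the naive libraries and 114, 143 and 108 CPM in the C57Bl6 libraries (log2 fold change 0.77, SE 0.15, adjusted p = 0.00776). Parva, alpha-parvin, was at 46, 64.5 and 66.2 CPM in the naive libraries and 129, 121 and 123 CPM in the C57Bl6 libraries (log2 fold change 1.08, SE 0.14, adjusted p = 0.00118). Lims1, the LIM protein, was at 147, 144 and 136 CPM in the naive libraries and 91.9, 86.6 and 102 CPM in the C57Bl6 libraries (log2 fold change -0.60, SE 0.11, adjusted p = 0.0059). Ilk and Parva were above and Lims1 below the naive range in every C57Bl6 library. Itga7, a laminin-binding integrin chain, was at 36.5, 36.2 and 89.6 CPM in the naive libraries and 2.88, 1.18 and 2.02 CPM in the C57Bl6 libraries (log2 fold change -4.73, SE 0.73, adjusted p = 0.00306), with naive replicate 3 the highest.

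Receptors and ligands of axon guidance, which also act in epithelia and vessels, gave some of the wider changes. Of 64 members 50 were tested, 13 were called higher and 4 lower (Unc5b, Ephb2, Unc5a and Neo1). Unc5a lies on chromosome 13 and missed the threshold without C57Bl6 replicate 2 (adjusted p = 0.0519). Dropping naive replicate 1 left 3 higher and 2 lower, naive replicate 2 left 5 and 2, and C57Bl6 replicate 3 left 8 and 2. With naive replicate 3 dropped 8 were higher, and with C57Bl6 replicate 2 dropped 2 were lower. Nrp1, a coreceptor for semaphorins and VEGF, was at 0, 0.132 and 0.0477 CPM in the naive libraries and 8.59, 23.9 and 12.9 CPM in the C57Bl6 libraries (log2 fold change 7.66, SE 0.71, adjusted p = 0.000165), and 8.74 without naive replicate 2. The secreted ligand Ntn4, a netrin, was at 0.143, 0.0877 and 0.0953 CPM in the naive libraries and 2.62, 6.06 and 6.46 CPM in the C57Bl6 libraries (log2 fold change 5.50, SE 0.67, adjusted p = 0.000708). Both were close to absent from the naive libraries.

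Robo1, a receptor for Slit ligands, was at 0.5, 0.307 and 0.429 CPM in the naive libraries and 3.98, 13.9 and 36.6 CPM in the C57Bl6 libraries (log2 fold change 5.47, SE 0.89, adjusted p = 0.00389). It differed widely among the C57Bl6 libraries, and its log2 fold change was 4.44 without replicate 3, the highest. Unc5b, a netrin receptor, was at 122, 156 and 203 CPM in the naive libraries and 76.7, 55.1 and 76.7 CPM in the C57Bl6 libraries (log2 fold change -1.21, SE 0.22, adjusted p = 0.00518), lower in all 3.

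**Figure D2:**
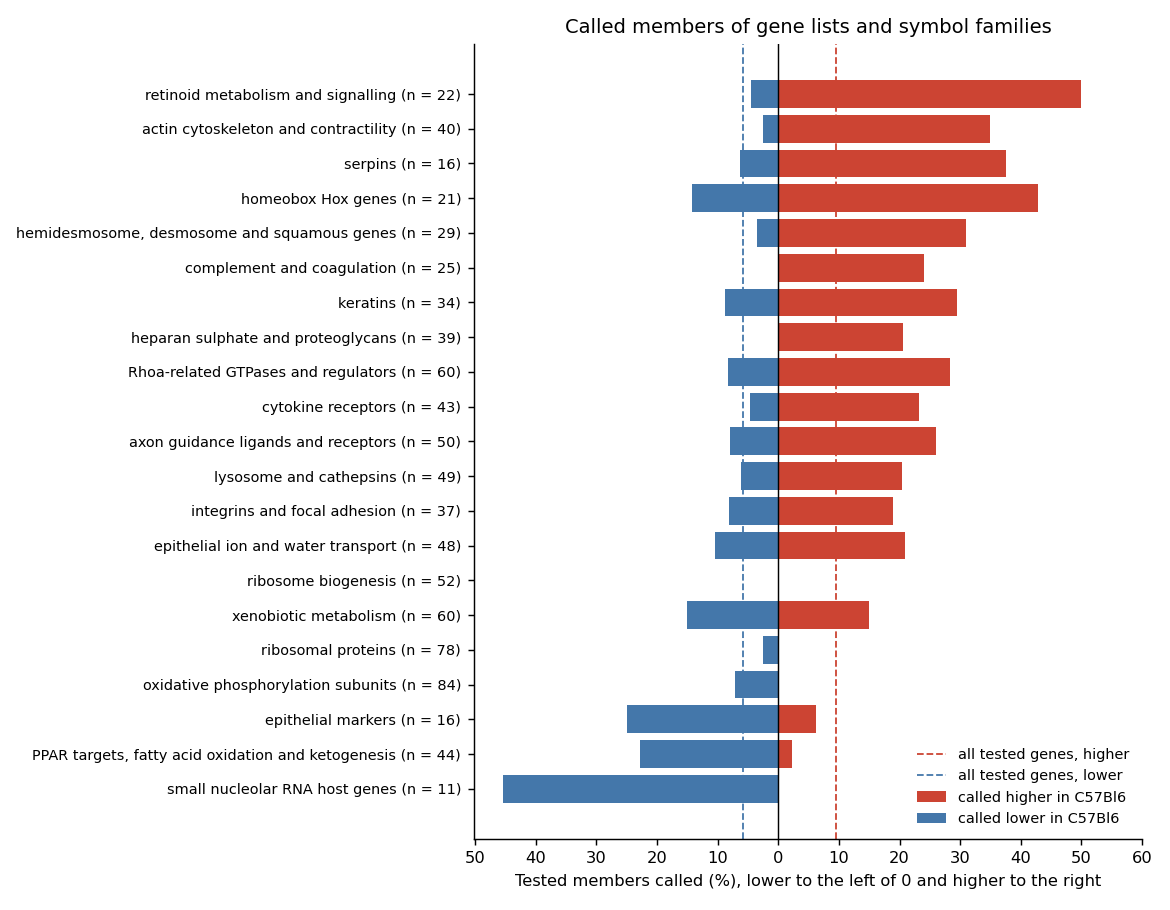
Percent of the tested members of 21 gene lists and symbol families that were called higher (red, right of 0) or lower (blue, left of 0) in the C57Bl6 libraries, with dashed lines at the shares over all tested genes, 9.5% higher and 5.85% lower. Of those plotted, retinoid genes reach furthest to the right with 11 of 22 and the small nucleolar RNA host genes furthest to the left with 5 of 11. Some families with few tested members are not plotted and had larger shares, such as Ceacam genes with 3 of 5 lower.

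Among proteoglycans of the basement membrane and cell surface a minority rose. Heparan sulphate chains on these proteins hold growth factors and bind laminin. Of 50 members of heparan sulphate and proteoglycans 39 were tested, 8 were called higher and 0 lower, and 31 were not called. By edgeR 1 member was lower at an unadjusted p under 0.05, and DESeq2 and limma voom called 0. Naive replicate 1 dropped, 4 were higher, and naive replicate 2 dropped, 5. Hspg2, perlecan of the basement membrane, was at 0.286, 0.0877 and 0.429 CPM in the naive libraries and 50.7, 71.9 and 56.4 CPM in the C57Bl6 libraries (log2 fold change 7.80, SE 0.50, adjusted p = 2.53e-05). Its log2 fold change was 8.43 without naive replicate 3, and the 3 C57Bl6 libraries were close to each other. Gpc1, a glypican at the surface, was at 23.4, 25 and 17 CPM in the naive libraries and 42, 103 and 84.5 CPM in the C57Bl6 libraries (log2 fold change 1.81, SE 0.31, adjusted p = 0.00431). Sulf2, which removes sulphate from the chains, was at 31.3, 41.4 and 40.6 CPM in the naive libraries and 153, 93.9 and 79 CPM in the C57Bl6 libraries (log2 fold change 1.52, SE 0.28, adjusted p = 0.00577), and Ext1, which builds them, rose by a log2 fold change of 0.94, SE 0.19. The other 4 higher members were Agrn, Extl3, Hs6st1 and Sdc1.

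Coagulation and fibrinolysis genes, usually products of liver and vessels, had 25 of 46 complement and coagulation members tested, 6 called higher and 0 lower, with 0 lower also at an unadjusted p under 0.05 in edgeR and by DESeq2 and limma voom, and 1 lower without C57Bl6 replicate 1. F5, coagulation factor V, was at 0.0715, 0.0877 and 0.0953 CPM in the naive libraries and 12.7, 18.4 and 6.16 CPM in the C57Bl6 libraries (log2 fold change 7.06, SE 0.57, adjusted p = 7.32e-05). Plau, the urokinase protease, was at 5.36, 6 and 4.91 CPM in the naive libraries and 55.3, 56.9 and 57.6 CPM in the C57Bl6 libraries (log2 fold change 3.38, SE 0.31, adjusted p = 0.000165), nearly the same in all 3 C57Bl6 libraries. F2r, the thrombin receptor, was at 0.429, 0.438 and 0.191 CPM in the naive libraries and 28.2, 8.92 and 16.4 CPM in the C57Bl6 libraries (log2 fold change 5.65, SE 0.70, adjusted p = 0.00088), and it lies on chromosome 13 with its lowest C57Bl6 value in replicate 2 (log2 fold change 5.97 without it). Procr, the receptor of protein C, named after its values were seen, was at 0.929, 0.745 and 2.91 CPM in the naive libraries and 83.9, 37.5 and 15.5 CPM in the C57Bl6 libraries (log2 fold change 4.87, SE 0.79, adjusted p = 0.00408), 4.09 with C57Bl6 replicate 1 dropped and 5.78 with naive replicate 3 dropped. The groups were separate for the 4 genes, and the remaining members called were Clu and Serpinb2.

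Channels and carriers that move salt and water across epithelia were called in both directions. Of 57 members of epithelial ion and water transport 48 were tested, 10 were called higher and 5 lower (Slc4a7, Aqp4, Atp2a3, Car1 and Car9), with 3 lower without naive replicate 1. Scnn1a, the alpha chain of the epithelial sodium channel, was at 1, 1.31 and 1.19 CPM in the naive libraries and 12.8, 23.6 and 20.7 CPM in the C57Bl6 libraries (log2 fold change 4.0, SE 0.31, adjusted p = 5.11e-05). Slc26a9, a chloride carrier best known from stomach and airway, was at 0.214, 0 and 0.191 CPM in the naive libraries and 9.22, 10.6 and 13 CPM in the C57Bl6 libraries (log2 fold change 6.37, SE 0.62, adjusted p = 0.000208), and 5.71 without naive replicate 2. The sodium bicarbonate cotransporter Slc4a4 was at 2.36, 2.41 and 3.72 CPM in the naive libraries and 26.8, 16.1 and 24.9 CPM in the C57Bl6 libraries (log2 fold change 2.99, SE 0.30, adjusted p = 0.00024). Naive and C57Bl6 libraries were separate in each case, and the further higher members were Aqp5, Kcne3, Ano1, Car12, Aqp1, Fxyd3 and Aqp3.

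Cytokine genes and their receptors rose in 10 of 43 tested members (59 in the list) and fell in 2, Il15 and Il17rb. Without naive replicate 1 or 2 there were 4 higher, and without naive replicate 3 there were 6. The lower calls numbered 1 when naive replicate 2 or 3 or C57Bl6 replicate 2 or 3 was dropped, and 4 when C57Bl6 replicate 1 was. Il1r1, the signalling receptor of interleukin 1, was at 4.22, 4.6 and 2.1 CPM in the naive libraries and 14.2, 22.2 and 24.1 CPM in the C57Bl6 libraries (log2 fold change 2.47, SE 0.37, adjusted p = 0.00219). Il18r1, a receptor chain for interleukin 18, was at 0.143, 0.175 and 0.191 CPM in the naive libraries and 8.54, 21.3 and 5.51 CPM in the C57Bl6 libraries (log2 fold change 6.04, SE 0.85, adjusted p = 0.00168), and 5.30 without C57Bl6 replicate 2. Lifr, a receptor of the interleukin 6 family, was at 5.72, 7.01 and 4.72 CPM in the naive libraries and 19.13, 24.9 and 24.4 CPM in the C57Bl6 libraries (log2 fold change 1.97, SE 0.33, adjusted p = 0.00368). The naive libraries lay below all C57Bl6 libraries for these 3 receptors. Il15, a cytokine that sustains lymphocytes, was at 4.29, 4.82 and 5.53 CPM in the naive libraries and 1.68, 2.41 and 1.16 CPM in the C57Bl6 libraries (log2 fold change -1.48, SE 0.32, adjusted p = 0.0128), and all its levels were low.

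A minority of fatty acid oxidation genes were called lower. Mitochondria import long acyl chains through the carnitine shuttle and shorten them in rounds of oxidation, under control of PPAR receptors. Of 49 members of PPAR targets, fatty acid oxidation and ketogenesis 44 were tested, 10 were called lower and 1, Angptl4, higher, and 33 were not called, with a median of -0.38. The lower count was 2 without naive replicate 1, 1 without naive replicate 2, 5 without naive replicate 3 and 5, 6 and 3 without C57Bl6 replicates 1, 2 and 3. Slc25a20, the carnitine carrier, was at 23.3, 20.8 and 23.8 CPM in the naive libraries and 13.3, 13.9 and 16.1 CPM in the C57Bl6 libraries (log2 fold change -0.65, SE 0.13, adjusted p = 0.0103).

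For Acadm, the medium-chain dehydrogenase, the values were 60.5, 58.9 and 55.7 CPM in the naive libraries and 44.2, 43.4 and 42.4 CPM in the C57Bl6 libraries (log2 fold change -0.43, SE 0.10, adjusted p = 0.0182). Its groups were tight and separate, but the call was lost when naive replicate 1 (adjusted p = 0.0560) was dropped, or 2 (0.0799) or C57Bl6 replicate 3 (0.0622). Angptl4, a secreted inhibitor of lipoprotein lipase and a PPAR target, moved against the rest at 0.0715, 0 and 0.143 CPM in the naive libraries and 6.71, 5.67 and 2.52 CPM in the C57Bl6 libraries (log2 fold change 6.02, SE 0.93, adjusted p = 0.00256), 5.38 without naive replicate 2 and 7.13 without naive replicate 3.

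Small nucleolar RNA host genes, transcripts whose introns release the guides of ribosomal RNA modification, fell in 5 of 11 tested members (Snhg6, Snhg1, Snhg5, Snhg8 and Snhg12) and rose in 0 (0 higher also at an unadjusted p under 0.05 in edgeR and by DESeq2 and limma voom). Dropping naive replicate 1 or 2 or C57Bl6 replicate 2 or 3 left 3 lower. Snhg6 was at 74, 66.3 and 70.3 CPM in the naive libraries and 35.6, 40.5 and 42.3 CPM in the C57Bl6 libraries (log2 fold change -0.83, SE 0.15, adjusted p = 0.00539), with no overlap. The log2 fold change was -0.86, SE 0.16 for Snhg1 and -0.90, SE 0.18 for Snhg5. For other genes of ribosome making and of respiration the number of calls depended on the tool. Of 52 tested members of ribosome biogenesis 0 were called by edgeR, 8 were higher and 1 lower at an unadjusted p under 0.05, DESeq2 called 2 and 1, and limma voom 6 and 1. Ribosomal proteins had 2 of 78 called by edgeR, both lower (Rps23 and Rpl22l1), with 11 lower at an unadjusted p under 0.05, 6 by DESeq2 and 18 by limma voom, and 0 higher by each. Oxidative phosphorylation subunits had 6 of 84 called by edgeR, all lower (Cox7c, Ndufa6, Uqcrfs1, Cox7a2l, Ndufs4 and Uqcrb). At an unadjusted p under 0.05 in edgeR 13 were lower, by DESeq2 11 and by limma voom 23, with 1 higher by each of these 3. The shares called lower by edgeR were 7.14% for these subunits and 2.56% for ribosomal proteins, near or below the 5.85% over all tested genes. The oxidative phosphorylation count was 0 with naive replicate 1 or 2 dropped, 2 with C57Bl6 replicate 2 dropped and 1 with C57Bl6 replicate 3 dropped. The ribosomal protein count was 0 with naive replicate 1 or 2 or C57Bl6 replicate 2 or 3 dropped, and 1 with naive replicate 3 dropped.

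Lysosomal genes had 10 higher and 3 lower members (Lipa, Hexa and Arsa) of 49 tested, with 6 lower without C57Bl6 replicate 1. The share lower, 6.12%, was near the 5.85% over all tested genes, and the share higher was 20.4% against 9.5%. Manba, beta-mannosidase, was at 14.2, 15.3 and 16.6 CPM in the naive libraries and 37.1, 29.3 and 30.9 CPM in the C57Bl6 libraries (log2 fold change 1.07, SE 0.14, adjusted p = 0.000824). Lipa, the acid lipase that frees cholesterol and fatty acids, was at 11.6, 10.2 and 12.9 CPM in the naive libraries and 3.2, 2.13 and 2.73 CPM in the C57Bl6 libraries (log2 fold change -2.10, SE 0.27, adjusted p = 0.000926). Both were separate between groups in opposite directions.

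Homeobox genes were called higher in the A cluster and lower in the B cluster. Hox factors keep positional identity along the body axis, and the colon expresses genes of the A and B clusters. All 11 Hoxa genes were tested, 8 were called higher and 0 lower, with a median log2 fold change of 1.32. Of 10 Hoxb genes 9 were tested, 0 were called higher and 3 lower (Hoxb13, Hoxb3 and Hoxb9), with a median of -0.38. The opposite directions had 0 calls also by DESeq2 and limma voom and 0 genes at an unadjusted p under 0.05 in edgeR. Over all 21 Hox genes tested, with the antisense gene Hoxa11as as the other higher call, there were 5 higher and 1 lower without naive replicate 1 or 2, and 1 lower without C57Bl6 replicate 2. No source used here states whether counting used the strand, so reads of Hoxa11 and Hoxa11as cannot be told apart.

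Hoxa7 was at 4.14, 3.81 and 4.39 CPM in the naive libraries and 10.4, 11.3 and 9.04 CPM in the C57Bl6 libraries (log2 fold change 1.32, SE 0.20, adjusted p = 0.00219). Hoxa10 was at 36, 36.5 and 49.6 CPM in the naive libraries and 68.8, 90 and 102 CPM in the C57Bl6 libraries (log2 fold change 1.10, SE 0.20, adjusted p = 0.00518). Both were above the naive range in all 3 C57Bl6 libraries. Hoxb9 was at 68, 69.6 and 79.5 CPM in the naive libraries and 32.8, 31.5 and 36.4 CPM in the C57Bl6 libraries (log2 fold change -1.11, SE 0.13, adjusted p = 0.000581), below naive in all 3 and with little spread.

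Other called genes lay outside these lists. Cyba, the membrane subunit of NADPH oxidases, was at 0.143, 0.132 and 0.191 CPM in the naive libraries and 85.8, 126 and 108 CPM in the C57Bl6 libraries (log2 fold change 9.36, SE 0.47, adjusted p = 4.53e-06). Palmd, palmdelphin of the cell cortex, had 2 counts in all naive libraries together and 43.7, 18.7 and 46.8 CPM in the C57Bl6 libraries, a ratio of 1070 with a 95% exact counting interval from 295 to 8810. Lphn2, an adhesion receptor, also had 2 naive counts and stood at 36.4, 31.4 and 21.5 CPM, a ratio of 855 (236 to 7070), with 1300 (232 to 51200) without naive replicate 1 and 545 (151 to 4500) without naive replicate 3. Intervals and floors cover counting error only. These 3 genes were near 0 in each naive library and well above it in each C57Bl6 library.

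Ifitm3, a membrane protein that restricts viruses, was at 3.57, 3.9 and 0.715 CPM in the naive libraries and 341, 557 and 904 CPM in the C57Bl6 libraries (log2 fold change 7.80, SE 0.63, adjusted p = 0.000114). Spp1, the secreted osteopontin, was at 30.4, 29.2 and 49.4 CPM in the naive libraries and 1916, 828 and 643 CPM in the C57Bl6 libraries (log2 fold change 4.96, SE 0.64, adjusted p = 0.0013), and 4.34 without C57Bl6 replicate 1. Cd24a, a surface glycoprotein of progenitor cells, was at 60.8, 63.7 and 37 CPM in the naive libraries and 434, 384 and 544 CPM in the C57Bl6 libraries (log2 fold change 3.08, SE 0.23, adjusted p = 4.64e-05). These were among the 10 genes that gained the most CPM. Slc16a3, the lactate exporter, was at 76, 80.8 and 126 CPM in the naive libraries and 486, 619 and 368 CPM in the C57Bl6 libraries (log2 fold change 2.38, SE 0.28, adjusted p = 0.000629), and Gabrp, an ion channel subunit, was at 3.86, 4.25 and 6.91 CPM in the naive libraries and 37.6, 80.7 and 134 CPM in the C57Bl6 libraries (log2 fold change 4.06, SE 0.51, adjusted p = 0.00112).

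Among the falls, Mt4, a metallothionein best known from squamous epithelium, was at 268, 228 and 84.8 CPM in the naive libraries and 7.96, 4.26 and 8.18 CPM in the C57Bl6 libraries (log2 fold change -4.83, SE 0.53, adjusted p = 0.000588). Ush1c, harmonin of the brush border tip links, was at 17.5, 15.5 and 23.1 CPM in the naive libraries and 1.1, 0.673 and 0.455 CPM in the C57Bl6 libraries (log2 fold change -4.64, SE 0.68, adjusted p = 0.00238). Trim31, an intestinal ubiquitin ligase, was at 13.1, 11 and 11.1 CPM in the naive libraries and 0.629, 0.281 and 0.202 CPM in the C57Bl6 libraries (log2 fold change -4.96, SE 0.39, adjusted p = 6.02e-05), and -5.57 without C57Bl6 replicate 1. No C57Bl6 library reached the lowest naive value of these genes. Syt7, a calcium sensor of exocytosis, was at 26.7, 42.7 and 64.3 CPM in the naive libraries and 5.92, 3.59 and 4.09 CPM in the C57Bl6 libraries (log2 fold change -3.30, SE 0.49, adjusted p = 0.00256), and Lgals4, a galectin of the intestinal epithelium, was at 1421, 1298 and 1266 CPM in the naive libraries and 794, 694 and 511 CPM in the C57Bl6 libraries (log2 fold change -0.99, SE 0.21, adjusted p = 0.0111). Among the 16 epithelial markers, 1 was called higher (Krt18) and 4 lower (Cdx2, Vil1, Lgals4 and Krt8).

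With at least 5 CPM in all 3 libraries of one group and at most 3 counts in each library of the other, 11 genes were on in the C57Bl6 group and off in naive: Igfbp4, Palmd, Sox17, Mmp14, Lphn2, Scara3, Nrp1, Igfbp7, F5, Tff1 and Dzip1l. The count was 23 without naive replicate 3, 22 without C57Bl6 replicate 1 and 17 without C57Bl6 replicate 3. In the other direction there was 1, Gm8979, a predicted gene at 13.6, 11.9 and 6.10 CPM in naive libraries, with 2 without naive replicate 3, C57Bl6 replicate 2 or C57Bl6 replicate 3 and 3 without C57Bl6 replicate 1.

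The C57Bl6 libraries differed among themselves somewhat more than the naive ones. The median SD of log2(CPM + 0.5) over tested genes was 0.218 in the C57Bl6 and 0.177 in the naive group, and 8349 of 13720 genes had the larger SD in the C57Bl6 group. Among the genes called higher that varied most, the high library was not the same one. Gata5, a factor of gut and heart development, was at 0.0715, 0 and 0 CPM in the naive libraries and 21.5, 0.898 and 2.88 CPM in the C57Bl6 libraries, high in replicate 1. Pdzrn3, a ubiquitin ligase, was at 0.0715, 0.0438 and 0.0477 CPM in the naive libraries and 8.12, 0.785 and 42.2 CPM in the C57Bl6 libraries, high in replicate 3. Foxf2, a forkhead factor of gut mesenchyme on chromosome 13, was at 0, 0 and 0.0477 CPM in the naive libraries and 0.21, 14.2 and 6.26 CPM in the C57Bl6 libraries, high in replicate 2 and near naive in replicate 1.

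Gata5 had a fitted log2 fold change of 8.41 (SE 1.55), or 6.25 with C57Bl6 replicate 1 dropped and 10.26 with naive replicate 1 dropped, and 1 naive count in all stands behind it. As a ratio of counts this is 492, with a 95% exact interval from 87.9 to 19500. The log2 fold change of Pdzrn3 was 8.17, and 6.24 if C57Bl6 replicate 3 is dropped, with a ratio of counts of 341 (116 to 1660). The Gata5 ratio was 112 (19.5 to 4490) without C57Bl6 replicate 1, and 298 and 314 without naive replicates 2 and 3. Without naive replicate 1 Gata5 was at least 61.4-fold higher, against a floor of 3 counts per library. The Pdzrn3 ratio was 88.2 (29.7 to 432) without C57Bl6 replicate 3. For Foxf2 the ratio was 389 (69.5 to 15400). Without C57Bl6 replicate 2 it was 190.0 (33.5 to 7570), and the fitted log2 fold change went from 8.16 to 7.07 (adjusted p = 0.0358). The ratio was 236 without naive replicate 2, and Foxf2 was at least 39.9-fold higher than that floor without naive replicate 3. Dropping a naive library ended the calls of Pdzrn3 and Foxf2, replicate 1 (adjusted p = 0.0534 and 0.0737), 2 (0.0588 and 0.0805) or 3 (0.0565 and 0.0838). Ifitm1, a relative of Ifitm3, was at 1.93, 3.55 and 0.334 CPM in the naive libraries and 13.3, 52.3 and 204 CPM in the C57Bl6 libraries (log2 fold change 5.51, SE 1.04, adjusted p = 0.00796), 4.06 with C57Bl6 replicate 3 dropped and 6.43 with naive replicate 2 dropped. Krt79 was at 2.07, 2.06 and 1.95 CPM in the naive libraries and 7.81, 100 and 15.2 CPM in the C57Bl6 libraries, high in replicate 2, with a log2 fold change of 4.33 that was 2.50 without that library. The call of Krt79 was lost when naive replicate 1 was dropped (adjusted p = 0.0865), or 2 (0.0897) or 3 (0.0860).

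A few genes reached 5 CPM in 1 of the C57Bl6 libraries with at most 0.5 CPM in the other 5. There were 4 in replicate 1 (Tfap2b, Frmd7, Lrp2 and Dhh), 2 in replicate 2 (Mnda and Cryba4), 2 in replicate 3 (Eif3j and Lrat) and 0 in any naive library. Tfap2b, a factor of the AP-2 family, was at 11 CPM in replicate 1 and at 0 in the other C57Bl6 libraries. Lrat, which makes the storage form of vitamin A, was at 5.30 CPM in replicate 3 and at 0 and 0.168 CPM in replicates 1 and 2.

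**Figure D3:**
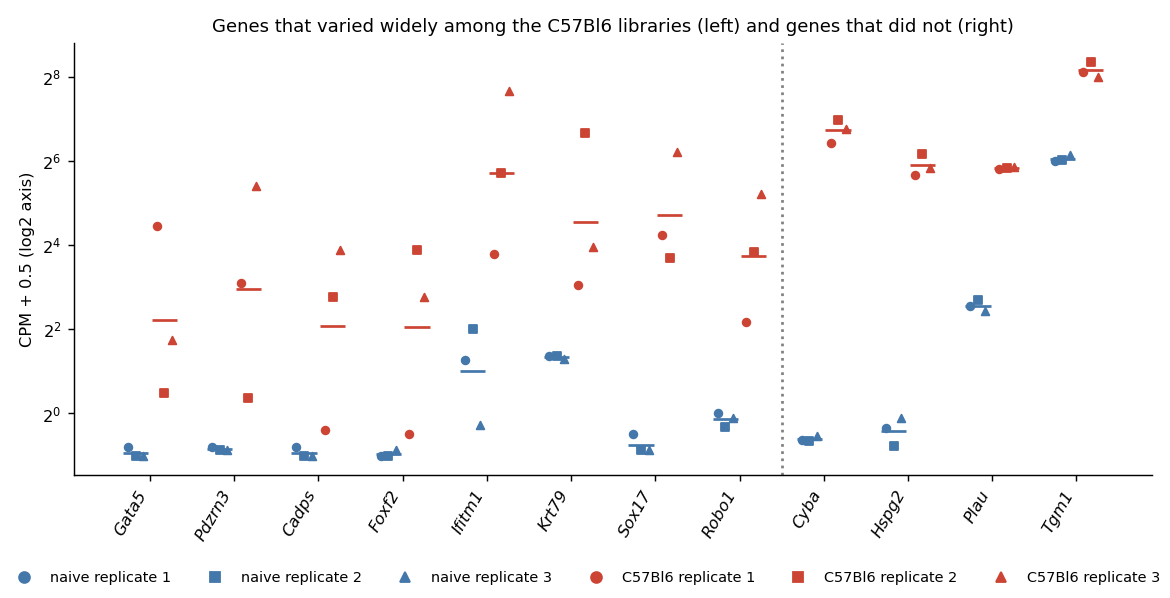
Level in each library as CPM + 0.5 on a log2 axis for 8 genes whose C57Bl6 values were far apart (left of the dotted line) and for 4 whose values were close (right), with horizontal lines at the mean of log2 values. The highest C57Bl6 library is replicate 1 for Gata5, replicate 2 for Krt79 and replicate 3 for Ifitm1, while Plau lies at 55.3 to 57.6 CPM in all 3.

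Chromosome 13 set C57Bl6 replicate 2 apart from the other libraries. Its 508 tested genes had a median log2 difference from the naive mean of -0.67 in that library, against -0.10 and -0.15 in C57Bl6 replicates 1 and 3. In linear terms the median ratio to naive was 0.63. Genes with a naive mean of at least 10 CPM, 312 in number, had a median of -0.77 (quartiles -0.95 and -0.57, ratio 0.588), and 294 of them were below the naive mean. Chromosome 13 supplied 1.65% of the CPM in C57Bl6 replicate 2, against 2.71 to 2.74% in the naive libraries, 2.43% in C57Bl6 replicate 1 and 2.40% in replicate 3.

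**Figure D4:**
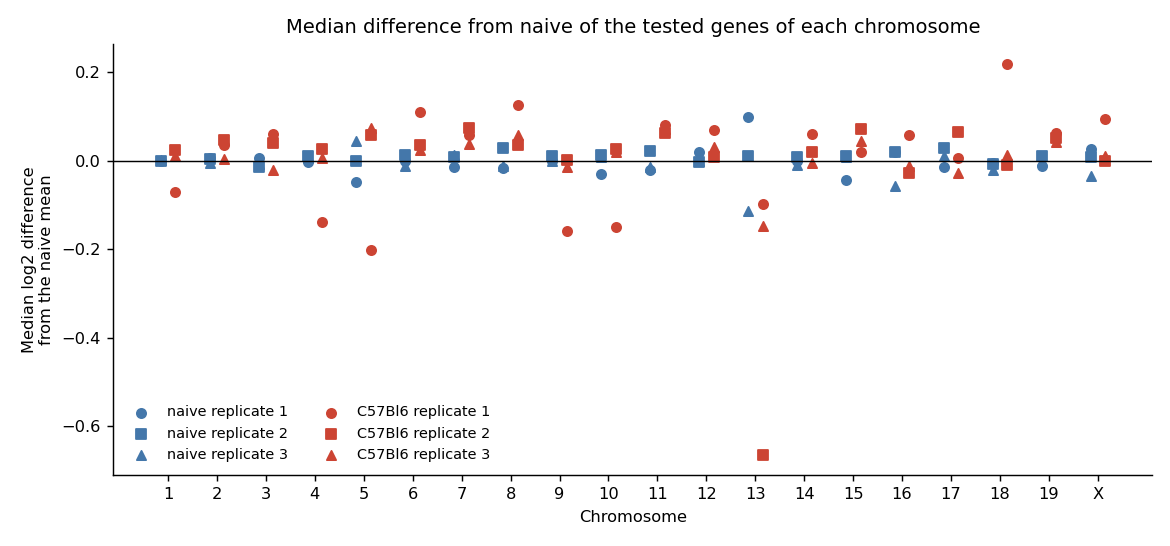
Median log2 difference from the naive mean of the tested genes of each chromosome, 1 point per library, naive in blue and C57Bl6 in red. For a naive library the reference is the mean of the other naive libraries. All points lie between -0.20 and 0.22 except C57Bl6 replicate 2 on chromosome 13, at -0.67.

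The lower level was spread along the chromosome. In runs of about 51 neighbouring tested genes, all 10 runs were below naive in C57Bl6 replicate 2, from -0.27 to -0.80. The smallest difference was in the second run, which holds histone genes and in which naive replicate 1 lay at 0.58 and naive replicate 3 at -0.40. Each naive library was set against the mean of the other naive libraries. Of the 508 genes, 342 (67.3%) were at their lowest of the 6 libraries in this library, against 19.02% of all tested genes. No run on another chromosome was below -0.4 in any of the 6 libraries. Abundant genes showed the same. Btf3, a translation-associated factor, was at 981, 875 and 761 CPM in the naive and 674, 493 and 633 CPM in the C57Bl6 libraries. Gdi2, a Rab regulator, was at 487, 514 and 487 CPM in the naive and 423, 244 and 372 CPM in the C57Bl6 libraries. Upward, C57Bl6 replicate 2 had 2 runs above 0.4 on other chromosomes, at 0.83 on chromosome 3 and 0.52 on chromosome 6. Neither rise was particular to this library. The chromosome 6 run lay at 0.32 and 0.37 in C57Bl6 replicates 1 and 3 and at 0.70, 0.69 and 0.50 in RAG2KO replicates 1 to 3. The chromosome 3 run lay at -0.003 and 0.17 in C57Bl6 replicates 1 and 3 and at 0.67, 0.97 and 0.525 in the RAG2KO replicates. Smaller shifts of whole chromosomes were seen in C57Bl6 replicate 1, with medians of -0.20 on chromosome 5 and 0.22 on chromosome 18.

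**Figure D5:**
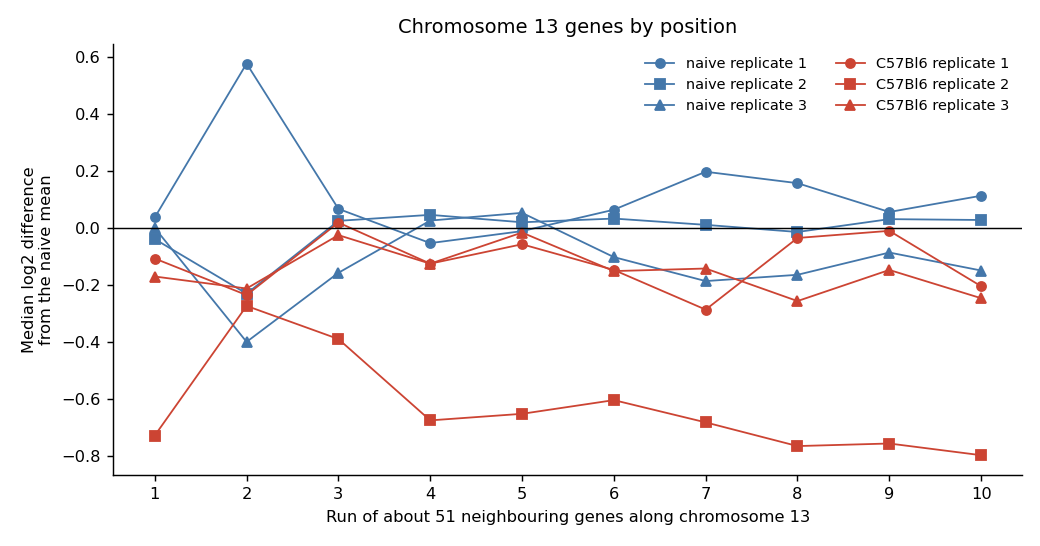
Median log2 difference from the naive mean in 10 runs of about 51 neighbouring genes in the GRCm38 order along chromosome 13, 1 line per library, naive in blue and C57Bl6 in red. For a naive library the reference is the mean of the other naive libraries. C57Bl6 replicate 2 is the lowest line in every run but the second, and lies between -0.60 and -0.80 from run 4 to run 10.

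This library weighed on the calls of the chromosome. On chromosome 13, 28 genes were called higher and 58 lower (11.4%, against 5.85% of all tested genes). Without C57Bl6 replicate 2 there were 31 higher and 21 lower, and 20 of the 21 were also called with it. The median log2 fold change of the chromosome was -0.31 with this library and -0.15 without it. Of the 6 respiratory genes called lower above, 4 lie on this chromosome (Cox7c, Ndufs4, Uqcrb and Uqcrfs1), and without C57Bl6 replicate 2 only Cox7c of these 4 was called (adjusted p = 0.0443, against 0.118 for Ndufs4, 0.135 for Uqcrb and 0.0931 for Uqcrfs1). Rps23, 1 of the 2 ribosomal protein genes called lower, also lies there and lost its call without that library (adjusted p = 0.0688). Among serpins, 4 of the 6 genes called higher and the 1 called lower lie there, and 3 and 1 of these were called without it.

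Sox17, the gene of the series title, was at 0.214, 0.0438 and 0.0477 CPM in the naive libraries and 18.4, 12.4 and 74.3 CPM in the C57Bl6 libraries (log2 fold change 8.54, SE 0.99, adjusted p = 0.000763), 7.35 with C57Bl6 replicate 3 dropped and 9.37 with naive replicate 1 dropped.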

How the data were processed

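RNA of the 11 organoid libraries was isolated with the Ambion PureLink kit and made into NEBNext Ultra II Directional libraries with poly(A) selection, per the labels. The submitters' processing notes name Bowtie, RSEM and the build mm9, and the sources used here give no version, annotation or strand setting. The deposited table holds the authors' expected counts for 23224 gene names (25 of them turned into dates), which were rounded here.

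All 11 libraries, in 5 groups, entered 1 edgeR 4.0.16 quasi-likelihood fit (robust, filterByExpr, TMM factors, R 4.3.3), with Benjamini-Hochberg adjustment over 13720 genes. The biological coefficient of variation was 25.3%. Fold changes are C57Bl6 over naive. In a test on simulated data of this comparison with 12484 genes, 36 of 100 genes with a 2-fold change and 100 of 100 with a 4-fold change were called. Of 12284 unchanged genes 11 were called. The simulation gave all genes the same spread and drew all groups from the naive means, with changes only in genes above a CPM minimum. It therefore does not measure the power in the real libraries, where the spread differs between genes. Each of the 55 pairs of libraries differed by more than sampling noise, so none was counted as a duplicate.

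The genes named are the 15 largest rises and falls of at least 5 CPM without overlap, the 10 largest gains and losses in CPM, the first 4 called genes of each of 38 lists and 45 symbol families, the 10 rises that varied most, and genes of the genotype and title; the text gives fewer, and some genes are not reported here. The comparison, lists and members were chosen with earlier results of these data known. Chromosomes come from RefSeq names on GRCm38.p6. A comparison of promoter composition was void because 78.7% of tested genes had a promoter, under the 80% required. Alternatives were DESeq2 1.42.0, limma voom 3.58.1, other scalings, filters and samples, and leaving out each library.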

Additional observations from a re-analysis of the deposited data

How the results depend on the processing

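The counts of 1304 higher and 802 lower genes stayed within 1.5 times under other scalings, filters, DESeq2, a non-robust fit, the 6 libraries alone and a fit without chromosome 13 genes. With limma voom they were 2274 and 1812, and among the members of the lists and families 579 higher and 427 lower, against 348 and 210. Leaving out 1 library gave 669 to 1181 higher and 357 to 769 lower genes, and 177 to 321 and 100 to 199 list members. With the replicate block on the 9 naive, C57Bl6 and RAG2KO libraries 1068 genes were higher and 669 lower, against 1256 and 833 for these libraries without a block, a fit added after the data were seen. Same-numbered naive and C57Bl6 libraries correlated at -0.18, -0.07 and -0.22 in their deviations from the group mean, and no C57Bl6 library correlated best with its own number. Deviations within a group of 3 offset one another, so these correlations cannot decide whether the numbers pair the libraries. Whether libraries of the same number were prepared together was not tested. The 11 genes on in C57Bl6 libraries became 27 at 2 CPM and 4 at 10 CPM, and 11 to 23 with 1 library left out. The 1 gene on in naive libraries became 2 at 2 CPM, 0 at 10 CPM and 1 to 3 with 1 library left out. The chromosome 13 median of -0.67 ranged from -0.75 to -0.62. Of 87 called genes examined singly 6 lost the call without 1 library, S100a7a lost it with the block, limma voom or no filter on low counts and Krt79 with no filter, and none changed direction. Settings in which a gene was filtered out and not tested do not enter these counts. Examples are Gata5 with the filter of 1 CPM in 3 libraries and Foxf2 with the 6 libraries alone. In the simulation, which gave all genes the same spread, 36 of 100 2-fold changes were called with 3 libraries a group. The causes were not tested.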
